A study of Mus musculus with 6 samples.

Results

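The genes of the vacuolar proton pump (V-ATPase) and of endosomal sorting were followed in the hippocampus of mice homozygous for the *App* NL-G-F knock-in allele and without *Mutyh* (genotype *Mutyh*-/-, here NL-G-F·*Mutyh* mice) and of wild-type mice. A gene was taken when the array carried it as a single symbol that began with Atp6v, Atp6ap, Vps or Snx, the last pair followed by a digit. Of 88 such genes, 80 reached a mean signal of 50 (5.64 on the log2 scale) in NL-G-F·*Mutyh* mice, in wild-type mice or in both. They were 18 of 25 V-ATPase genes, 33 of 33 vacuolar protein sorting (VPS) genes and 29 of 30 sorting nexin (SNX) genes, out of 21159 transcript clusters, the array's units of measurement, that reached the same minimum.

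Each of 6 mice gave 1 GeneChip Mouse Gene 2.0 ST array, so each group held 3 arrays, and all mice were females of 6 months. NL-G-F·*Mutyh* mice carry the Swedish, Arctic and Iberian mutations knocked into both copies of mouse *App*, which stays under its own promoter, and lack *Mutyh*, encoding a DNA glycosylase that removes adenine paired with oxidized guanine. Wild-type mice carry neither change, so what *App* and what *Mutyh* contributes to a difference cannot be told apart. The wild-type arrays came from a series deposited before, and the 2 sources coincide with the 2 genotypes, which cannot be told apart from them.

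The V-ATPase moves protons into lysosomes, endosomes and synaptic vesicles. Its V1 sector in the cytosol splits ATP, and its V0 sector in the membrane carries the protons across. VPS proteins form the complexes that sort and fuse endosomes, among them retromer and retriever, which send receptors back to the Golgi or the cell surface, ESCRT, which passes receptors on to lysosomes, HOPS and CORVET, which tether organelles before fusion, and GARP and EARP, which tether vesicles at the Golgi and at recycling endosomes. SNX proteins bind the phosphoinositides of these membranes and shape tubules or pick cargo, and in neurons and glia these routes also handle the amyloid precursor protein.

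None of the 80 genes passed the adjusted test (limma, moderated test with Benjamini-Hochberg adjustment over all 21159 transcript clusters, lowest adjusted *p* = 0.183 for *Snx14*). Over the whole array, 12 transcript clusters were higher and 1 was lower in NL-G-F·*Mutyh* mice at an adjusted *p* under 0.05, or 0.0567% and 0.00473%. At an unadjusted *p* under 0.05, 5 of the 80 genes were higher (6.25%) and 2 were lower (2.5%), against 8.88% and 4.75% of all transcript clusters tested. Both shares were under those of the array as a whole, but the counts moved with the setting. Without wild-type replicate 1, 9 of the 80 genes were higher and 3 lower, with 1871 and 1117 of all 21159 transcript clusters. With each array centred on its median over all transcript clusters, 3 of the 80 genes were higher and 5 lower, with 1049 and 1585 of all. The 3 arrays of one group lay clear of the 3 of the other for 13 genes that were higher in NL-G-F·*Mutyh* mice (16.2%) and 4 that were lower (5%), against 13.9% and 8.11% of all transcript clusters, or 22% in either direction, so these shares too were close to or below those of the array. In bulk hippocampal RNA, fewer cells of a type and less RNA per cell cannot be told apart.

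The differences of the 80 genes, NL-G-F·*Mutyh* minus wild type, ran from -0.23 to 0.37 on the log2 scale, or from 85.1% to 129% wild type. Their median was 0.03, beside 0.02 for all transcript clusters tested. The medians of the classes were -0.002 for V-ATPase genes, 0.04 for VPS genes and 0.08 for SNX genes, but that of V-ATPase genes ran from -0.05 to 0.04 over 18 alternative settings, and that of VPS genes became -0.01 and that of SNX genes 0.03 with each array centred on its median over all transcript clusters. V-ATPase genes were split evenly, with 9 above and 9 below wild type, and 20 of 33 VPS genes and 19 of 29 SNX genes lay above it, where 56.8% of all transcript clusters did. The median of V-ATPase genes was 0.05 below the median of the VPS and SNX genes together (-0.002 against 0.05). With 1 array left out this contrast ran from -0.08 (without wild-type replicate 3) to -0.02 (without wild-type replicate 2). The contrast includes *Atp6v1b1* and *Snx20*, each of which reached the minimum only in the group where it was higher. With the minimum required in both groups it was -0.04, and with no minimum -0.03. The V-ATPase median was then 0.01 and 0.03.

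**Figure D1:**
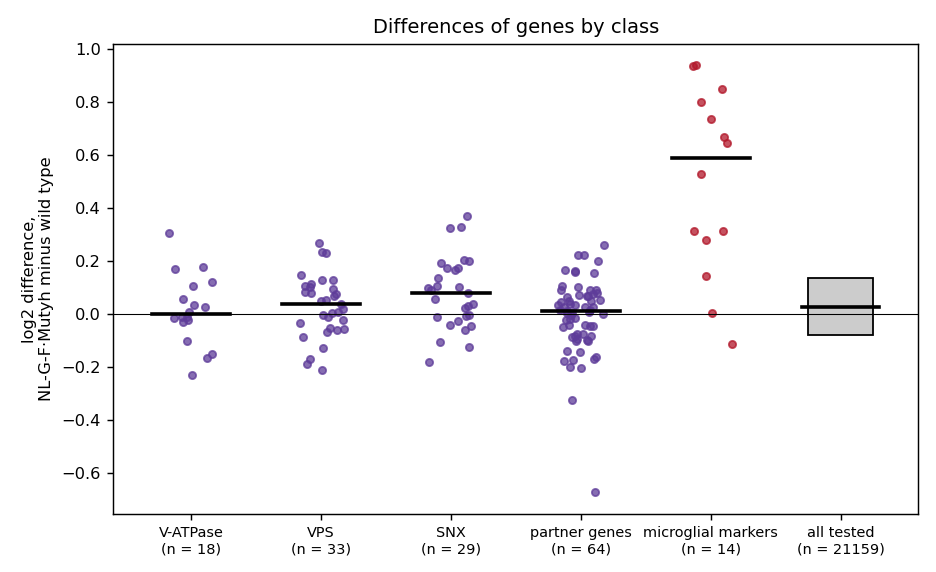
Log2 differences, NL-G-F·Mutyh minus wild type, of V-ATPase (n = 18), VPS (n = 33) and SNX genes (n = 29), of 64 partner genes and of 14 microglial markers, 1 point per gene, with black lines at the medians and, for all 21159 transcript clusters tested, a box from the lower to the upper quartile. The points of the V-ATPase, VPS and SNX classes lie around 0, between -0.23 and 0.37, while the median of the microglial markers is 0.59.

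On single arrays, the V-ATPase and VPS classes spread as far within a group as between groups. Averaged over the 18 V-ATPase genes and set against each gene's wild-type mean, NL-G-F·*Mutyh* replicates 1 to 3 gave -0.02, 0.004 and 0.06, and wild-type replicates 1 to 3 gave 0.06, 0.01 and -0.06. The NL-G-F·*Mutyh* averages all lay within the range of the wild-type averages. For VPS genes the averages were 0.04, 0.05 and -0.01 in NL-G-F·*Mutyh* mice and 0.04, -0.02 and -0.02 in wild-type mice. Here too the groups overlapped, with wild-type replicate 1 at the level of the higher NL-G-F·*Mutyh* arrays. For SNX genes the averages were 0.07, 0.07 and 0.10 in NL-G-F·*Mutyh* mice and 0.04, -0.02 and -0.02 in wild-type mice. These averages did not overlap between groups, but the medians of the same SNX genes did, at 0.04, 0.07 and 0.09 in NL-G-F·*Mutyh* mice and 0.06, -0.02 and -0.03 in wild-type mice. Averages and medians both include *Snx20*, which reached the minimum of signal only in NL-G-F·*Mutyh* mice, the group where it was higher. The V-ATPase averages include *Atp6v1b1*, which reached it only in wild-type mice, where that gene was higher. The V-ATPase average minus that of the VPS and SNX genes on the same array was -0.07, -0.05 and 0.02 in NL-G-F·*Mutyh* mice and 0.02, 0.03 and -0.04 in wild-type mice, so the contrast between the classes overlapped as well.

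**Figure D2:**
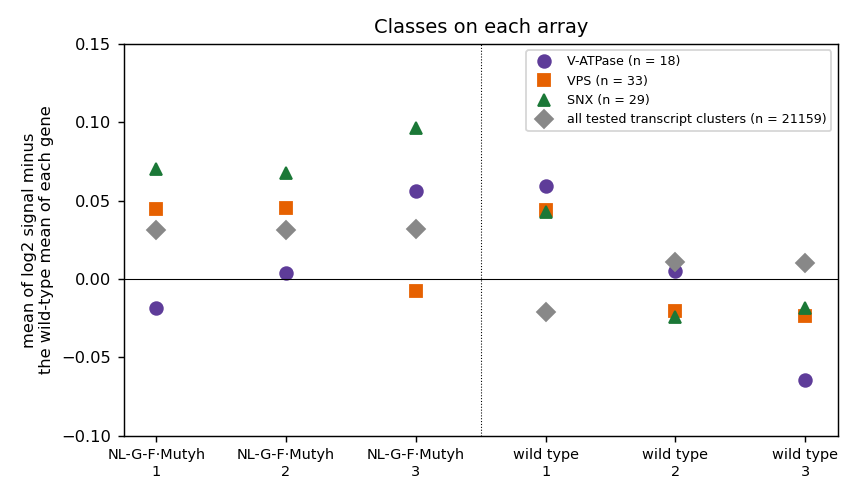
Mean of log2 signal minus the wild-type mean of each gene, for V-ATPase, VPS and SNX genes and all transcript clusters tested, on each of the 3 NL-G-F·Mutyh arrays (left) and the 3 wild-type arrays (right). The SNX means are 0.07 to 0.10 on the NL-G-F·Mutyh arrays and -0.02 to 0.04 on the wild-type arrays, and the V-ATPase means overlap.

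The same arrays tended to hold the extremes of many genes. NL-G-F·*Mutyh* replicate 3 gave the highest of the 6 values for 26 of the 80 genes (32.5%, against 20.2% of all transcript clusters tested), and wild-type replicate 1 did so for 27 (33.8%, against 19.8%). Wild-type replicate 3 gave the lowest value for 29 genes (36.2%, against 19.0%), among them 10 of the 18 V-ATPase genes. For the genes with an unadjusted *p* under 0.05, the difference is therefore also given with each array left out.

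In the V1 sector, the genes of the catalytic head stayed near or below wild type. *Atp6v1a*, encoding the subunit that splits ATP, gave log2 signals of 10.90, 10.87 and 10.99 in NL-G-F·*Mutyh* mice and 10.99, 10.86 and 10.82 in wild-type mice. The groups overlapped, and the difference was 0.03 with a 95% interval from -0.15 to 0.22, or 102% wild type. *Atp6v1b2*, encoding the B subunit found in brain, gave 11.40 on each NL-G-F·*Mutyh* array and 11.71, 11.43 and 11.35 on the wild-type arrays (difference -0.10, 95% interval -0.35 to 0.15). *Atp6v1b1*, encoding the B subunit of acid-secreting epithelia, gave 5.48 on each NL-G-F·*Mutyh* array and 5.59, 5.79 and 5.55 on the wild-type arrays, so all NL-G-F·*Mutyh* values lay below all wild-type values (difference -0.17, unadjusted *p* = 0.0841, adjusted *p* = 0.418, limma). *Atp6v1b1* was taken in through its wild-type mean alone, so its direction and its lack of overlap are not independent of the minimum.

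*Atp6v1b1* and *Atp6v1b2* had the same deposited value to the last digit in all 3 NL-G-F·*Mutyh* mice. This was found for 191 of the 21159 transcript clusters tested (0.903%) in NL-G-F·*Mutyh* mice and for 0 of them in wild-type mice. The errors of both genes therefore rest on the wild-type arrays and on the spread of other genes, and the cause was not tested. A second transcript cluster of *Atp6v1b2*, with values that differed between mice, gave a difference of -0.03.

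Of the 7 genes of the V1 stalks and rotor, 6 lay above wild type, with a median of 0.06, and none had an unadjusted *p* under 0.05. *Atp6v1f*, encoding a small subunit of the central stalk, had the greatest difference of all V-ATPase genes. Its signals were 5.88, 6.32 and 6.19 in NL-G-F·*Mutyh* mice and 6.03, 5.80 and 5.66 in wild-type mice, not far above the minimum of 5.64. The groups overlapped through NL-G-F·*Mutyh* replicate 1, and the difference of 0.30 (standard error 0.14, 123% wild type) had an unadjusted *p* of 0.0726 and an adjusted *p* of 0.401 (limma).

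*Atp6v1d*, encoding the rotor shaft, gave 10.45, 10.43 and 10.70 in NL-G-F·*Mutyh* mice and 10.41, 10.32 and 10.32 in wild-type mice. All NL-G-F·*Mutyh* values lay above all wild-type values, by little for 2 of the 3 mice, and the difference was 0.18 (standard error 0.09, adjusted *p* = 0.432, limma). *Atp6v1c1*, encoding the subunit that lets V1 dock on V0, gave 10.58, 10.70 and 10.94 against 10.71, 10.66 and 10.55 in wild-type mice, and its groups overlapped. The differences of *Atp6v1e1* and the neuronal *Atp6v1g2*, both for the peripheral stalks, were 0.01 and 0.03, and that of *Atp6v1h*, for a regulatory subunit, was 0.06, all 3 of them with a sign that changed under some of the alternative settings. *Atp6v1g1*, for a further peripheral stalk subunit, gave -0.01, while dimmer transcript clusters of the same gene, under the minimum of signal, gave 0.06 and 0.17.

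The V0 sector held the V-ATPase gene with the smallest *p*. *Atp6v0a1*, encoding the a subunit of synaptic vesicles and neuronal lysosomes, gave 10.79, 10.83 and 10.71 in NL-G-F·*Mutyh* mice and 11.07, 11.03 and 10.93 in wild-type mice. Every NL-G-F·*Mutyh* value lay below every wild-type value, and the difference was -0.23 (standard error 0.07, 95% interval -0.41 to -0.06), or 85.1% wild type. It had an unadjusted *p* of 0.016 and an adjusted *p* of 0.28 (limma), so it did not pass the test. Over the 6 fits with 1 array left out, the difference ran from -0.27 to -0.20, and the unadjusted *p* was at most 0.046.

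*Atp6v0a2*, encoding the a subunit of the Golgi and endosomes, went the other way, with 8.56, 8.42 and 8.54 in NL-G-F·*Mutyh* mice and 8.53, 8.24 and 8.39 in wild-type mice (difference 0.12, adjusted *p* = 0.592, limma). Its groups overlapped. *Atp6v0b*, encoding a proteolipid of the rotating ring, gave 10.26, 10.18 and 10.18 against 10.23, 10.50 and 10.34 in wild-type mice (difference -0.15, adjusted *p* = 0.473). *Atp6v0e* and *Atp6v0e2*, paralogues for the small e subunit, differed by 0.17 and -0.03, with 95% intervals of -0.10 to 0.43 and -0.23 to 0.16. *Atp6v0d1*, encoding the subunit that joins the ring to the central stalk, differed by -0.02.

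The accessory genes *Atp6ap1* and *Atp6ap2*, for proteins that take part in assembly of the pump, differed by -0.01 each, with 95% intervals of -0.19 to 0.16 and -0.25 to 0.23. *Atp6ap2* gave 10.15, 10.22 and 10.49 in NL-G-F·*Mutyh* mice and 10.34, 10.29 and 10.26 in wild-type mice, so NL-G-F·*Mutyh* mice lay both below and above wild type. Over the 10 V1 genes the median difference was 0.03 and over the 6 V0 genes it was -0.03. For the 15 V-ATPase genes other than *Atp6v0a1*, *Atp6v1b1* and *Atp6v1d*, the groups overlapped.

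**Figure D3:**
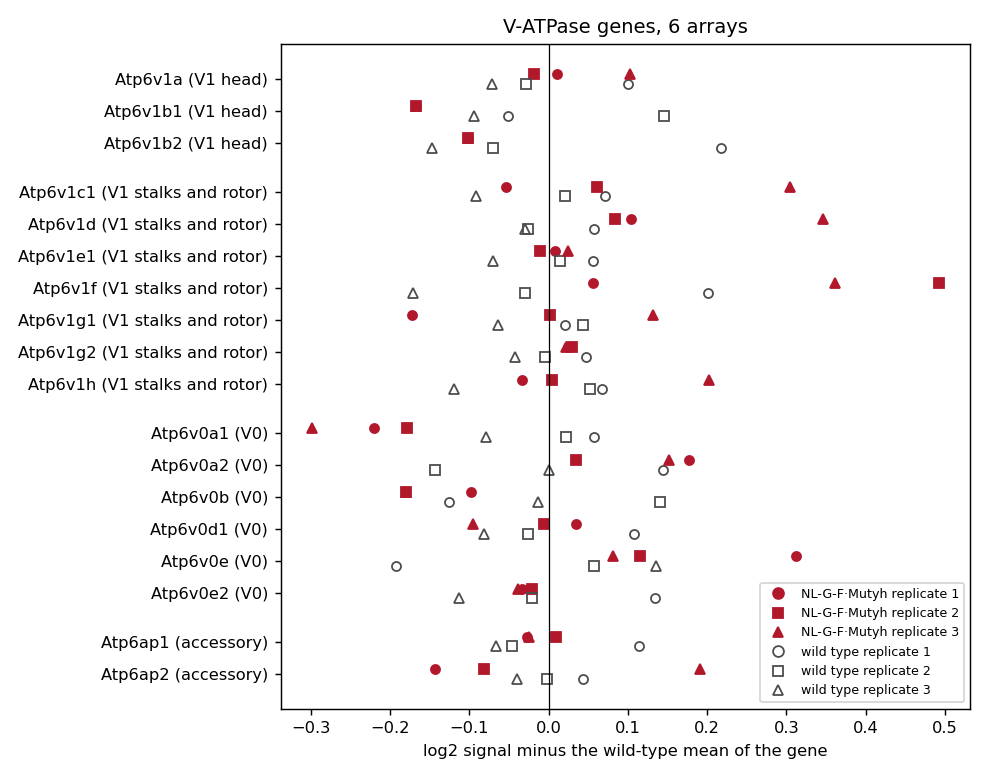
Log2 signal minus the wild-type mean of the gene for the 18 V-ATPase genes, on the 3 NL-G-F·Mutyh arrays (filled symbols) and the 3 wild-type arrays (open symbols), ordered by sector. The filled symbols of Atp6v0a1 lie left of all open ones (difference -0.23), and for Atp6v1b1 and Atp6v1b2 the 3 filled symbols coincide.

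Among VPS genes, those of the retromer and retriever cores were mostly above wild type, 5 of 6 with a median of 0.12, and none had an unadjusted *p* under 0.05. *Vps29*, a subunit that both complexes share, gave 8.43, 8.42 and 8.69 in NL-G-F·*Mutyh* mice and 8.31, 8.16 and 8.37 in wild-type mice. The groups did not overlap, and the difference was 0.23 (standard error 0.10, 118% wild type, unadjusted *p* = 0.058, adjusted *p* = 0.379, limma). A transcript cluster assigned to *Vps29* together with other genes gave 0.06. *Vps35*, the scaffold of retromer, gave 10.14, 10.16 and 10.30 in NL-G-F·*Mutyh* mice and 10.16, 9.95 and 10.10 in wild-type mice, with overlap (difference 0.13, 95% interval -0.07 to 0.33). *Vps26a*, its cargo-binding arm, likewise differed by 0.13 (95% interval -0.07 to 0.32). The retriever genes *Vps35l* and *Vps26c* differed by 0.11 and -0.05.

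*Vps45* had the smallest *p* among VPS genes. It encodes a partner of SNARE proteins in endosomal fusion. Its signals were 7.97, 8.07 and 8.10 in NL-G-F·*Mutyh* mice and 7.85, 7.82 and 7.78 in wild-type mice. The groups were clear of each other, and the difference was 0.23 (standard error 0.07, 117% wild type, unadjusted *p* = 0.013, adjusted *p* = 0.268, limma). The unadjusted *p* was under 0.05 in 5 of 6 fits with 1 array left out and 0.0517 without NL-G-F·*Mutyh* replicate 2. *Vps72* and *Vps9d1*, which the symbol also takes in, differed by 0.10 and -0.06. *Vps72* encodes a chaperone of a histone variant in the nucleus and not a sorting protein.

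Of the ESCRT genes, 5 of 8 lay above wild type, with a median of 0.01. *Vps28*, a core subunit of ESCRT-I, gave 10.54, 10.49 and 10.39 in NL-G-F·*Mutyh* mice and 10.58, 10.72 and 10.69 in wild-type mice. All NL-G-F·*Mutyh* values were below all wild-type values, though NL-G-F·*Mutyh* replicate 1 and wild-type replicate 1 were close. The difference was -0.19 (standard error 0.08, 87.7% wild type, unadjusted *p* = 0.0433, adjusted *p* = 0.352, limma), and with 1 array left out its unadjusted *p* stayed under 0.05 without wild-type replicate 1 (0.026) and reached up to 0.119 in the other fits. *Vps37b*, another ESCRT-I subunit, differed by -0.17 with overlapping groups. *Vps36*, of ESCRT-II, differed by 0.10, and *Vps4b*, one of the ATPases that take ESCRT apart, by 0.08 with groups that did not overlap (8.36, 8.35 and 8.42 in NL-G-F·*Mutyh* mice, 8.27, 8.32 and 8.32 in wild-type mice).

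The list of HOPS and CORVET genes, which also took in *Vps33b*, a relative of *Vps33a*, had a median of -0.02. Of its 8 genes, 3 lay above wild type, among them *Vps33b* (difference 0.05). *Vps18*, of the core common to both complexes, gave 7.29, 7.26 and 7.06 in NL-G-F·*Mutyh* mice and 7.54, 7.33 and 7.37 in wild-type mice. The groups did not overlap (difference -0.21, standard error 0.10, unadjusted *p* = 0.061, adjusted *p* = 0.384, limma). A second, dimmer transcript cluster of *Vps18* gave 0.04, so the direction of the gene depended on the transcript cluster. The core genes *Vps11* and *Vps33a* differed by -0.09 and -0.07, and *Vps8*, of CORVET, by -0.005, where a second transcript cluster of *Vps8* gave 0.12.

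The 4 GARP and EARP genes were split, with *Vps52* at -0.13 and *Vps54* at 0.11, and *Vps50*, which marks EARP, at 0.08. *Vps54* did not overlap between groups, with 7.38, 7.42 and 7.39 in NL-G-F·*Mutyh* mice and 7.18, 7.31 and 7.37 in wild-type mice, although the nearest arrays nearly met. Among the VPS13 genes, for bridge-like proteins that move lipids between organelles, *Vps13c* had the greatest difference of all VPS genes. It gave 9.37, 9.30 and 8.86 in NL-G-F·*Mutyh* mice and 8.82, 8.93 and 8.98 in wild-type mice. NL-G-F·*Mutyh* replicate 3 lay within the wild-type range and the other 2 above it, and the difference of 0.27 had a standard error of 0.14 (adjusted *p* = 0.445, limma). *Vps13a* differed by 0.15 and *Vps13d* by -0.01.

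SNX genes held 4 of the 5 genes that were higher at an unadjusted *p* under 0.05, and 0 that were lower. Over all transcript clusters tested, 8.88% were higher and 4.75% lower at that threshold. The groups did not overlap for 8 of the 29 SNX genes, all higher in NL-G-F·*Mutyh* mice, against 13.9% of all transcript clusters. These counts include *Snx20*, which reached the minimum only in the group where it was higher. None of them passed the adjusted test, and no test of the class was made. *Snx14* and *Snx29* had the smallest *p* of the 80 genes.

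*Snx14* encodes a membrane protein of the endoplasmic reticulum with PX and RGS domains, and in humans its loss causes a cerebellar ataxia. Its signals were 8.42, 8.52 and 8.51 in NL-G-F·*Mutyh* mice and 8.14, 8.12 and 8.22 in wild-type mice. The groups lay well apart, with a difference of 0.32 (standard error 0.07, 95% interval 0.16 to 0.49), or 125% wild type. The unadjusted *p* was 0.00244 and the adjusted *p* 0.183 (limma). With 1 array left out the difference ran from 0.30 to 0.36 and the unadjusted *p* was at most 0.0139. Of the related nexins in the same list, *Snx13* differed by 0.10, *Snx19* by -0.11 and *Snx25* by -0.03.

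*Snx29*, a nexin of little-known function with PX and RUN domains, gave 6.89, 6.81 and 6.81 in NL-G-F·*Mutyh* mice and 6.40, 6.58 and 6.55 in wild-type mice. Here as well the groups lay apart (difference 0.33, standard error 0.08, 126% wild type, unadjusted *p* = 0.00378, adjusted *p* = 0.203, limma). The difference ran from 0.27 to 0.36 with 1 array left out, and the unadjusted *p* was at most 0.0171.

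*Snx20*, which binds the selectin ligand PSGL-1 of white blood cells and brings it to endosomes, had the greatest difference of the 80 genes. It gave 6.17, 5.97 and 5.88 in NL-G-F·*Mutyh* mice and 5.73, 5.60 and 5.59 in wild-type mice. The difference was 0.37 (standard error 0.10, 129% wild type, unadjusted *p* = 0.00652, adjusted *p* = 0.224, limma), and with 1 array left out it ran from 0.29 to 0.43. *Snx20* was taken in through its NL-G-F·*Mutyh* mean of 6.01 alone, since its wild-type mean of 5.64 fell just short of the minimum, so its place among the 80 genes is not independent of its direction. Microglial markers were higher in NL-G-F·*Mutyh* mice as well (median difference 0.59 over 14 markers), and their part in the difference of *Snx20* was not tested.

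*Snx12* was the fourth SNX gene. It encodes a nexin made of little more than a PX domain, close to *Snx3*, which recruits retromer. It gave 8.04, 7.97 and 8.07 in NL-G-F·*Mutyh* mice and 7.93, 7.82 and 7.74 in wild-type mice. The groups were apart by a narrow gap (difference 0.20, standard error 0.08, 115% wild type, unadjusted *p* = 0.0386, adjusted *p* = 0.343, limma). With 1 array left out, its unadjusted *p* stayed under 0.05 without wild-type replicate 1 (0.0159) and reached up to 0.107 in the other fits.

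**Figure D4:**
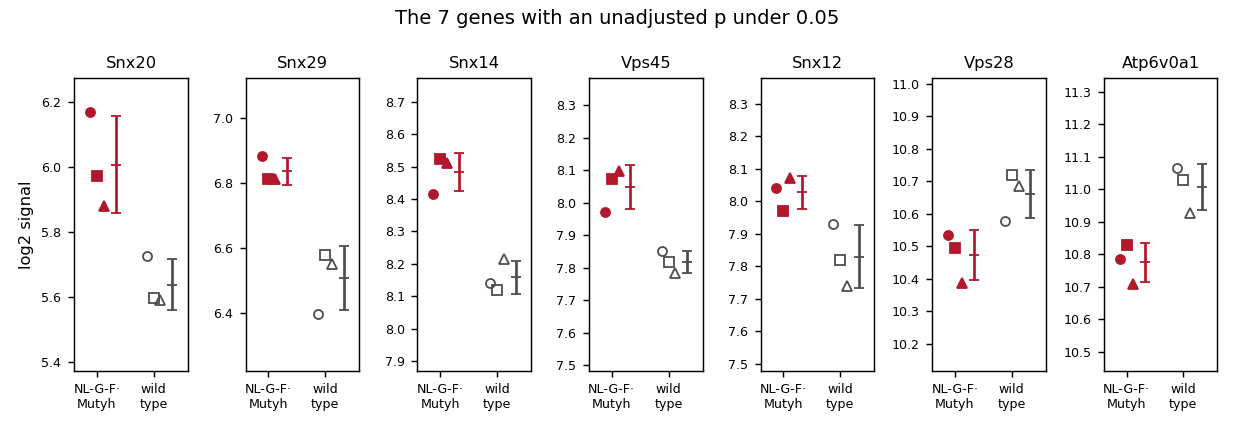
Log2 signals of the 7 genes with an unadjusted p under 0.05, each NL-G-F·Mutyh array left and each wild-type array right, with the mean and SD of the 3 arrays as bars and an axis range of its own in each panel. The values of the 2 groups do not overlap in any of the 7 panels, and the differences run from -0.23 (Atp6v0a1) to 0.37 (Snx20).

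Other nexins linked to retromer were split, with 4 of the 8 genes of this list above wild type. *Snx27*, whose PDZ domain picks receptors for recycling, gave 9.35, 9.40 and 9.41 in NL-G-F·*Mutyh* mice and 9.32, 9.19 and 9.13 in wild-type mice. *Snx5*, a BAR-domain nexin that forms tubules, gave 7.73, 7.76 and 7.77 in NL-G-F·*Mutyh* mice and 7.47, 7.68 and 7.62 in wild-type mice. In both genes the groups did not overlap, with differences of 0.17 (adjusted *p* = 0.374) and 0.16 (adjusted *p* = 0.406, limma). Among the other BAR-domain nexins, *Snx1* and *Snx6* differed by -0.01 each, *Snx2* by 0.10 and *Snx32*, related to *Snx6*, by -0.18 (95% interval -0.41 to 0.05). *Snx3* differed by -0.04.

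*Snx7* and *Snx16* completed the SNX genes without overlap. *Snx7*, of the family of *Snx4*, gave 7.81, 7.81 and 8.09 in NL-G-F·*Mutyh* mice and 7.76, 7.65 and 7.68 in wild-type mice (difference 0.20, adjusted *p* = 0.407, limma). *Snx16*, a nexin of late endosomes, gave 8.54, 8.60 and 8.87 in NL-G-F·*Mutyh* mice and 8.51, 8.47 and 8.44 in wild-type mice (difference 0.19, adjusted *p* = 0.436, limma). In both, NL-G-F·*Mutyh* replicate 3 stood well above the other arrays. *Snx4* and *Snx8* differed by 0.10 and 0.02. The 3 genes of the *Snx9* family, for nexins of membrane scission, differed by 0.08 (*Snx9*), 0.09 (*Snx18*) and 0.03 (*Snx33*). *Snx17*, the cargo adaptor of retriever, differed by -0.13 (95% interval -0.31 to 0.06). *Snx11* differed by 0.04, and a dimmer transcript cluster of it by -0.01. The single transcript cluster of *Snx21* gave -0.06, while one assigned to both *Acot8* and *Snx21* gave -0.38 (unadjusted *p* = 0.00199, adjusted *p* = 0.181, limma), and the array does not tell which of the genes that signal came from.

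**Figure D5:**
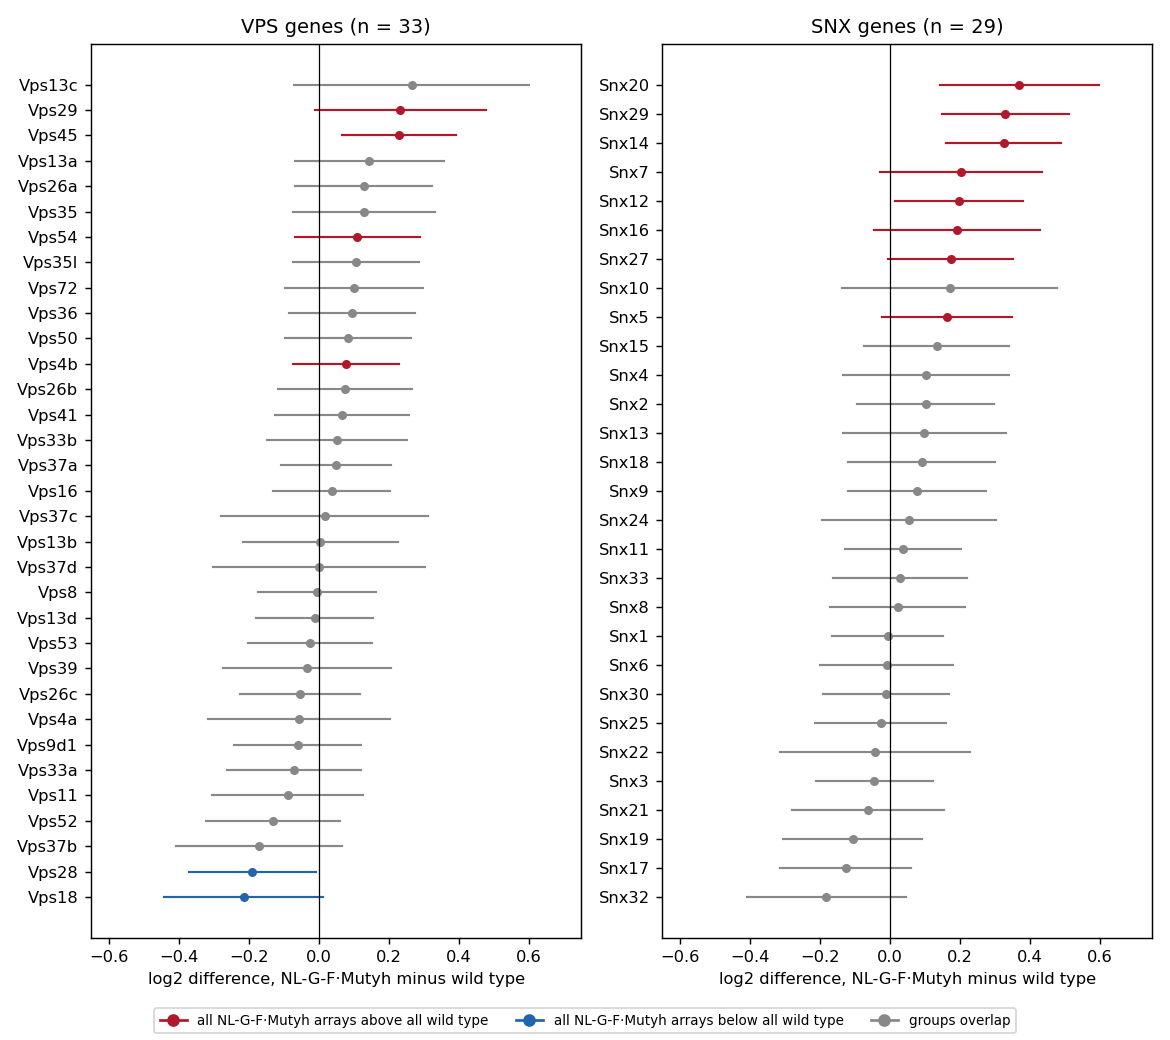
Log2 differences, NL-G-F·Mutyh minus wild type, of the 33 VPS genes (left) and the 29 SNX genes (right), with 95% intervals as bars, sorted by size; red and blue mark genes whose groups do not overlap. At the top stand Vps13c (0.27) with overlapping groups and Snx20 (0.37) without overlap.

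The genes at the edge of the minimum were few. *Atp6v1b1* passed through its wild-type mean of 5.64 alone and *Snx20* through its NL-G-F·*Mutyh* mean alone, and the other 78 genes passed in both groups. *Snx22* lay just inside, with means of 5.93 in NL-G-F·*Mutyh* mice and 5.97 in wild-type mice (difference -0.04). *Snx31* fell just short, with 5.29, 5.57 and 5.57 in NL-G-F·*Mutyh* mice and 5.56, 5.52 and 5.03 in wild-type mice. The other genes under the minimum were *Atp6ap1l*, *Atp6v0a4*, *Atp6v0d2*, *Atp6v1c2*, *Atp6v1e2*, *Atp6v1fnb* and *Atp6v1g3*, several of them subunit isoforms known from kidney, bone or testis. *Vps25* and *Vps51* were measured only together with other genes (differences of 0.03 and -0.13), and *Atp6v0c* was not analysed here.

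Beside expression, many genes of the V-ATPase and of endosomal sorting are known to share a promoter element, CLEAR, which the lysosomal regulator TFEB binds and whose core is CACGTG. The promoters in RefSeq (GRCm38.p6, from 250 bases before to 50 bases after the start) covered 55 of the 80 genes. CACGTG, searched on both strands, stood in those of 11 of the 55 genes (20.0%), against 8.09% of 27025 genes. TCACGTGA, which contains it, stood in 6 of 55 (10.9%), against 1.12%, namely in 3 of 13 V-ATPase genes, 3 of 21 VPS genes and 0 of 21 SNX genes. The full palindrome of the element, which adds 1 base at each end of TCACGTGA, stood in 3 of 55 genes, all of them VPS genes, against 0.37%. The windows of 24 bases around TCACGTGA are shown for these 6 genes as the members in which the motif was found, most genes of each class having no match. TCACGTGA is in capitals, and each sequence is given 5′ to 3′ on the strand of the gene.
*Atp6v0d1*, chr8:105566053-105566076 (-): tactgcggTCACGTGAgacgcggt
*Atp6v0e*, chr17:26676390-26676413 (+): cgcgccgaTCACGTGAgcctctgt
*Atp6v1a*, chr16:44139376-44139399 (-): tttttaaaTCACGTGAtaggctta
*Vps16*, chr2:130424293-130424316 (+): cggcctcgTCACGTGAccccgaag
*Vps26a*, chr10:62486735-62486758 (-): gcctacggTCACGTGAcgggcggc
*Vps26a*, chr10:62486973-62486996 (-): acggctcgTCACGTGAcaactagc
*Vps33a*, chr5:123573013-123573036 (-): acgtcccgTCACGTGAcgcaggcg
*Vps33a*, chr5:123573029-123573052 (-): gactcggaTCACGTGAacgtcccg

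*Vps26a* has these windows in promoters of different starts, which overlap each other, and the windows of *Vps33a* overlap in 1 promoter. The 6 genes had a median difference of 0.03, from -0.07 in *Vps33a* to 0.17 in *Atp6v0e*, and the other 49 genes with a promoter had a median of 0.02. None of the 7 genes with an unadjusted *p* under 0.05 was among the 6, but *Snx20*, which is among the 7, had no promoter to search. A match of letters is not a measured binding site.

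Genes that work with these complexes under other names also stayed mostly near wild type. Over all transcript clusters tested, 8.88% were higher and 4.75% lower at an unadjusted *p* under 0.05. In a list of 15 genes, 1 gene is 6.67%, close to these shares. Of 15 V-ATPase partners tested (assembly factors, disassembly proteins and chloride transporters of the same organelles), 0 were higher and 1 was lower at an unadjusted *p* under 0.05. This was *Ccdc115*, an assembly factor of the pump, with 6.50, 6.37 and 6.58 in NL-G-F·*Mutyh* mice and 6.98, 6.75 and 6.69 in wild-type mice (difference -0.33, adjusted *p* = 0.28, limma). Of 15 partners of retromer, retriever and the WASH complex, 1 was higher and 1 lower. *Commd3*, of the complex that works with retriever, differed by 0.26 (adjusted *p* = 0.274). *Sorcs1*, a sorting receptor of the family of *Sorl1*, had the greatest difference of these lists. It gave 6.31, 6.67 and 6.78 in NL-G-F·*Mutyh* mice and 7.25, 7.38 and 7.15 in wild-type mice, or 62.7% wild type (difference -0.67, standard error 0.14, unadjusted *p* = 0.00176, adjusted *p* = 0.181, limma).

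Of 19 further ESCRT genes, 0 were higher and 0 lower at an unadjusted *p* under 0.05, against 8.88% and 4.75% of transcript clusters tested. Of 15 genes of the phosphoinositide kinases and RAB proteins of endosomes, *Becn1*, of the kinase complex that serves endosomes and autophagy, was higher (8.38, 8.55 and 8.48 in NL-G-F·*Mutyh* mice, 8.27, 8.25 and 8.23 in wild-type mice, difference 0.22, adjusted *p* = 0.295). *Rubcn*, which restrains that complex, was lower (difference -0.17, adjusted *p* = 0.366, limma). None of these partner genes passed the adjusted test.

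The targeted genes and cell type markers were measured on the same arrays. *Mutyh* gave 5.37, 5.46 and 5.42 in NL-G-F·*Mutyh* mice and 5.44, 5.11 and 5.28 in wild-type mice, under the minimum in either genotype, which leaves the knockout unchecked by its signal. *App* averaged 11.94 ± 0.12 in NL-G-F·*Mutyh* mice and 12.05 ± 0.09 in wild-type mice (SD, n = 3 each). Of 14 microglial markers measured, 13 were above wild type and *Tmem119* was below it (difference -0.12). Of the 13, 11 had an unadjusted *p* under 0.05 and 3 (*Cd68*, *Ctss* and *Mpeg1*) an adjusted *p* under 0.05 (limma). The median difference of the 14 markers was 0.59. Their summed linear signal was 5299 to 5621 in NL-G-F·*Mutyh* mice and 3498 to 3695 in wild-type mice. The median difference was 0.05 for 10 neuronal markers (from -0.45 in *Tubb3* to 0.25). It was 0.14 for 8 markers of granule and CA neurons (from -0.48 in *Mpped1* to 0.43 in *Iyd*). For 7 astrocyte markers it was 0.10 (from -0.23 in *Aldh1l1* to 0.68 in *Gfap*). For 6 oligodendrocyte markers it was -0.16 (from -0.28 in *Mog* to 0.15 in *Mobp*). For 7 markers of endothelial and mural cells it was -0.04 (from -0.43 in *Cldn5* to 0.25). The summed signal of the granule and CA neuron markers was 3879 to 4257 in NL-G-F·*Mutyh* mice and 3707 to 3796 in wild-type mice, without overlap. In this list 6 genes lay above wild type, among them *Prox1* (0.34), and 2 below, *Mpped1* (-0.48) and *Fibcd1* (-0.14). The sum thus joins markers that went in opposite directions. The summed signal of the astrocyte markers was 6526 to 6845 in NL-G-F·*Mutyh* mice and 5512 to 6029 in wild-type mice, also without overlap. This sum holds *Gfap* (difference 0.68), while the other astrocyte markers ran from -0.23 in *Aldh1l1* to 0.22 in *Aqp4*. It therefore does not show a rise of astrocyte markers in general. The sums of the neuronal, the oligodendrocyte and the endothelial and mural markers overlapped. The summed signal of 6 choroid plexus markers ran from 6687 to 13508 in NL-G-F·*Mutyh* mice and from 3609 to 14608 in wild-type mice. The part of these cell types in the differences of the V-ATPase, VPS and SNX genes was not tested. Over tested transcript clusters the median of each array was 7.19 to 7.21. Over all transcript clusters measured, the array medians were 5.65 to 5.66 in NL-G-F·*Mutyh* mice and 5.55 to 5.64 in wild-type mice, without overlap.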

How the data were processed

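Transcriptome Analysis Console 4.0 was the authors' software, and the values they deposited are log2 signals, 1 per transcript cluster and array, taken without further normalization. How it summarized and normalized the arrays, and on which build, is not given in the sources used here. Of 41345 transcript clusters, 23521 had 1 gene symbol in the platform annotation, 1820 several and 16004 none. A transcript cluster was tested if either group's mean reached 50 (log2 of 5.64), which left 21159, with limma 3.58.1 in R 4.3.3 (lmFit and eBayes, two-sided, Benjamini-Hochberg adjustment over all of them), a call being an adjusted *p* under 0.05. The test was checked on simulated data. An unadjusted *p* under 0.05, the threshold of the study's methods, serves as description. Errors are moderated standard errors, intervals are the 95% intervals of the same fit, and % wild type is 100 times 2 to the power of the difference. Arrays have no counts, and their number, 3 per group, limits the precision.

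A gene with several transcript clusters is represented by that of highest mean over the 6 arrays. The genes and lists were chosen with earlier results of these data known. Named are all V-ATPase genes, genes at an unadjusted *p* under 0.05, the 3 with the smallest *p* in each other list, genes near the minimum, and genes with discordant transcript clusters; other names were added after their values were seen. Alternatives were other minimums, normalizations and moderation, weighted arrays, the replicate number as a block, omission of single arrays, gene means and, chosen after seeing the data, leaving out identical values. Lists were written from textbook knowledge. The labels name biological replicates. Replicate numbers did not pair mice across groups.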

Additional observations from a re-analysis of the deposited data

How the results depend on the processing

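None of the 80 genes passed the adjusted test under any of 18 alternatives (lowest adjusted *p* = 0.0813, *Snx14* with array weights), and 51 kept their direction under each alternative in which they were tested, while 29 did not. *Snx8*, *Snx20*, *Snx21*, *Snx22*, *Atp6v1b1* and *Atp6v1f* were not tested under every minimum. With arrays left out in turn, transcript clusters higher and lower at an adjusted *p* under 0.05 numbered 2 to 3 and 0 to 1, those at an unadjusted *p* under 0.05 numbered 1210 to 1871 and 647 to 1163, and, of the 80 genes, from 3 (without NL-G-F·*Mutyh* replicate 2) to 9 (without wild-type replicate 1) were higher and 1 to 3 lower at that threshold. The V-ATPase median minus that of the VPS and SNX genes ran from -0.0818 (without wild-type replicate 3) to -0.0154 (without wild-type replicate 2), beside -0.053 with all arrays. The V-ATPase median ran from -0.03 to 0.04, so its sign was not stable.

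Without a minimum, 3764 transcript clusters were higher and 2112 lower at an unadjusted *p* under 0.05, with 1 of the V-ATPase, VPS and SNX genes lower. The minimum in both groups gave 0 adjusted calls lower, as did an intensity trend with robust moderation. A minimum of 100 gave 20 adjusted calls higher and 1212 transcript clusters higher at an unadjusted *p* under 0.05. Transcript clusters with 1 symbol gave 36 adjusted calls higher and 7 lower. Array weights gave 38 and 4. At an unadjusted *p* under 0.05 they gave 2694 of all 21159 transcript clusters higher and 1556 lower, and 8 of the 80 genes higher and 4 lower. When arrays were centred on their medians over all transcript clusters, 1049 were higher and 1585 lower (39.8% higher, against 65.1% as deposited and 51.1% with quantile normalization), of the 80 genes 3 were higher and 5 lower, and the medians were -0.0118 for VPS and 0.0294 for SNX genes. The replicate block left 2 adjusted calls higher and 0 lower. At an unadjusted *p* under 0.05, 1 of the 80 genes was then lower, with 824 of all 21159 transcript clusters. Same-numbered mice did not deviate together (correlations of -0.10, 0.02 and -0.06). The standard errors of the 80 differences, with 3 arrays per group, were 0.06 to 0.14.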
